A study of Dunaliella salina with 9 samples.

Results

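The clusters described here are transcript clusters of the green alga Dunaliella salina with fewer counts in every red-light library than in every white-light and every blue-light library. They were chosen from the measured values: a mean of at least 10 CPM (read counts scaled to the library total) over the 9 libraries, and a highest red CPM of at most 1/1.5 of the lowest CPM in the 6 white and blue libraries. The rule found 161 of 115975 clusters, or 1.50% of the 10739 clusters that reach this mean. In 134 of them red lay below a level above 0 in all 6 other libraries, and these are called members with a gap. The other 27 had no counts in red and no counts in at least 1 white or blue library, so that they met the rule only because 0 is not above 0. As the rule used all 9 libraries, the distance between red and the other lights is given as a description, and a test is read only for blue against white, whose direction the rule does not set.

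Total RNA was sequenced from 9 samples of cultured cells, 3 for each light. Cells in mid-exponential phase had been grown under cold white lamps in a light-dark cycle and were moved to fresh medium under cool white light, red light of 660 nm or blue light of 450 nm. The photon flux was the same for all lights (50 µmol per square metre and second). The series calls the samples biological, but separate cultures, the strain and the time under each light are not stated, so that p-values measure the spread between these samples, which may be technical.

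D. salina is known for tolerating high salt and for accumulating β-carotene. Chlorophylls absorb both red and blue light, whereas carotenoids absorb blue light and hardly any red light. In the related green alga Chlamydomonas reinhardtii, phototropin and cryptochromes are known blue-light receptors, and an animal-like cryptochrome also responds to red light. The files count reads on numbered clusters and pair no cluster with a gene, and none of the 16683 entries of the RefSeq gene table for Dunsal1 v. 2 shares an identifier with them. Pathways, functions and sequences of the members are therefore not named here. Whether a member stands for a whole gene, a splice form or an allelic copy is not known. All 161 members, like all 10739 clusters with a mean of at least 10 CPM, carry the same first number, 15686, which 96131 of the clusters share.

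The libraries held 16279167 to 24526786 counts. White 3 stood between white 1 and white 2 in 80.5% of the 10739 clusters, against 26.0% to 44.5% for any red library between the other red ones and 27.9% to 44.8% for any blue one. A mix of 40% of white 1 and 60% of white 2 differed from white 3 by a median of 0.089 on the log2 scale (after adding 1 CPM), whereas white 1 and white 2 differed from each other by 0.58. Among the 134 members with a gap, white 3 lay between the other white libraries in 106. Whether white 3 is independent of the others is not given, and its part in the results was not tested beyond leaving it out.

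The members with a gap took up 4.33% ± 0.72 of a white library on average (SD, n = 3), but 0.471% ± 0.0026 of a red one and 1.38% ± 0.37 of a blue one. By this summed share, blue stood between the others and nearer to red, whose lowest place is set by the rule. The sum gives most weight to the most abundant members. Medians of the members' mean CPM were 47.8 (white), 30.6 (blue) and 10.4 (red), so that by this measure blue lay nearer to white. A single member, Cluster-15686.47801, took much of the white share. Without it the share was 2.77% ± 0.069 for white, 0.421% ± 0.0025 for red and 1.22% ± 0.31 for blue. The blue libraries differed, with 1.04% of their counts in the members in blue 1, 1.32% in blue 2 and 1.79% in blue 3.

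**Figure D1:**
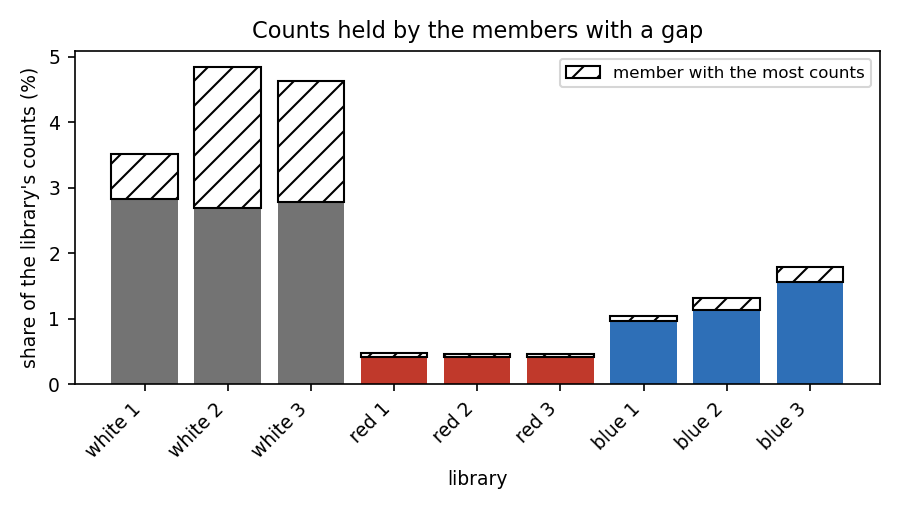
Share of each library's counts, in percent, held by the 134 members with a gap; the filled part of a bar is all members but Cluster-15686.47801, and the hatched part is that cluster. The red libraries lie at 0.469% to 0.474%, blue at 1.04% to 1.79% and white at 3.52% to 4.85%.

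For most members with a gap the distance to red was small. The ratio of the lowest white or blue CPM to the highest red CPM had a median of 1.72, with quartiles at 1.61 and 2.08. It reached 2 in 36 members, 3 in 14 and 4 in 6. At the edge of the rule, the 3 members just inside had ratios of 1.501, 1.501 and 1.505, and the 3 clusters just outside 1.499, 1.498 and 1.491. The lowest mean among the members was 10.05 CPM, and a cluster at 9.947 CPM with the same gap stayed outside.

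**Figure D2:**
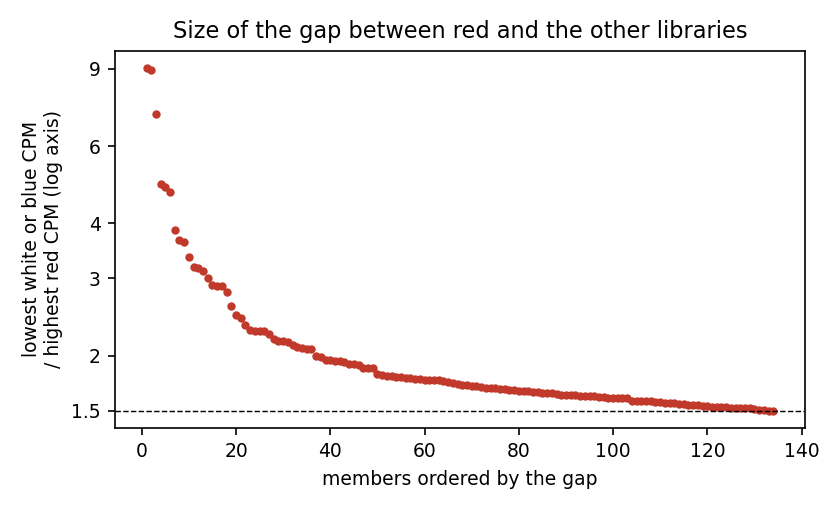
The 134 members with a gap, ordered along the x axis, with the ratio of their lowest white or blue CPM to their highest red CPM on a log axis; the dashed line is the 1.5-fold limit of the rule. A few members reach from 4 up to 9.04, and the curve then runs close to the limit.

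Mean levels were farther apart than this strict ratio. The mean in white was a median of 3.98 times that in red, from 1.62 to 725 times, and at least 10 times in 31 of the 134 members. The mean in blue was a median of 2.41 times that in red, from 1.61 to 62.4 times, and at least 4 times in 31. The library with the lowest CPM of the 6 was a blue one in 107 members and a white one in 27. Blue 1 was the lowest of the 6 in 67 members. Per kilobase of effective length, the median level of the members was 35.4 FPKM under white, 7.65 under red and 20.8 under blue light.

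The set was about as large as those the same rule gives for the other directions. With the lights exchanged, 158 clusters were lowered only in blue, of which 134 had a level above 0 in every white and red library. Another 159 clusters were raised only in red and 185 only in blue. No test was made of these numbers.

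Blue was then compared with white, to ask which members were lowered in red alone. Of the 134 members with a gap, 90 (67.2%) were lower in blue than in white, 5 were higher and 39 did not pass the threshold (edgeR's quasi-likelihood test on TMM-scaled counts, Benjamini-Hochberg adjusted p under 0.05 over 38376 clusters). Of all clusters tested, 14.7% were lower in blue and 14.1% higher. Among clusters with a mean of at least 10 CPM, the range from which the members come, 28.8% were lower and 15.2% higher. A fall in red alone is thus not what the test shows for these 90 members with TMM. The same holds for 61 members when library totals alone set the scale. Their level was below white in blue too. That red lay lower still was set by the rule, and 41 of the 90 were called lower in red than in blue. Among clusters with a mean of at least 10 CPM, 1.83% were so called. The rule also bears on the count of 90, since it asks for high white levels and sets a floor for both white and blue.

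The libraries themselves show the same order without a model. In 74 of the 134 members every white library lay above every blue library, which in turn lay above every red one, as the rule requires. Among the clusters with a mean of at least 10 CPM, blue lay below white without overlap in 20.9% and above it in 44.7%. Blue lay above white without overlap in 14 of the members, and the libraries overlapped in 46. The mean CPM of white and blue were within 1.5-fold of each other in 55 members, white was higher by more than that in 69, and blue in 10.

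**Figure D3:**
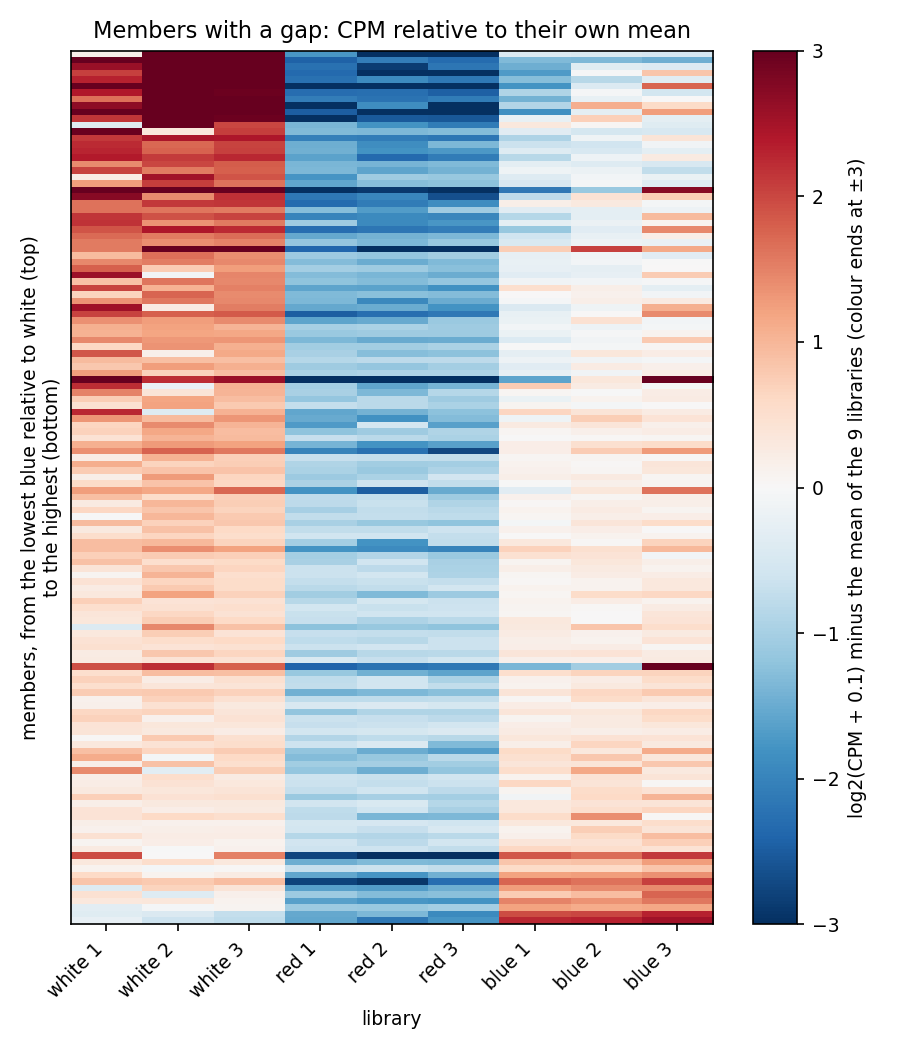
Heat map of the 134 members with a gap (rows, ordered by the fitted difference between blue and white) in the 9 libraries (columns); colour is log2(CPM + 0.1) minus the member's mean over the libraries, in red for high and blue for low, with the scale ended at ±3. All red-light columns are low, and the blue-light columns run from near the red level at the top to above the white level at the bottom.

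The scaling moved this result. TMM scales the white libraries up relative to blue (factors of 0.788 to 0.936 in white and 1.09 to 1.16 in blue), and the median difference of all tested clusters between blue and white was 0.28 on the log2 scale. With library totals alone that median was 0.67, and 61 of the 134 members were lower in blue and 11 higher, beside 9.04% and 20.9% of all tested clusters. The median difference of the members was -1.02 with TMM. Means in blue were above those in white in 11 members with TMM and in 22 with library totals.

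Without white 3, 80 of all 161 members were lower in blue and 4 higher, in place of 108 and 5. Calls over all tested clusters fell as well, to 8.29% lower and 9.33% higher. Shares among clusters with a mean of at least 10 CPM were not counted without white 3.

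**Figure D4:**
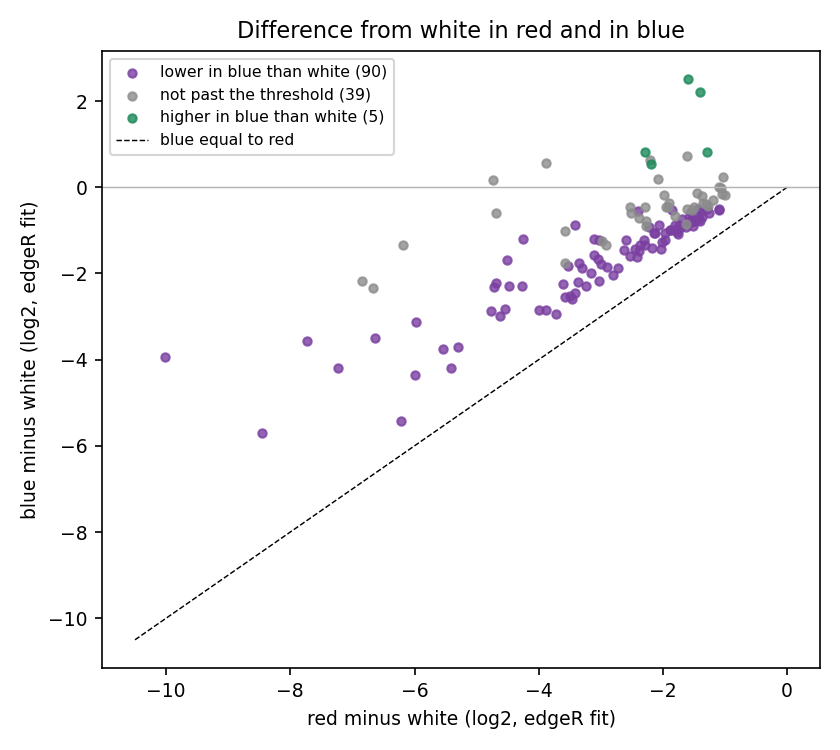
Fitted log2 difference from white in red (x axis) and in blue (y axis) for the 134 members with a gap, coloured by the test of blue against white; the dashed line marks equal levels in red and blue. All points lie above that line, as the rule requires, and 90 of them are members lower in blue than in white.

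Against white, all 134 members with a gap were called lower in red. So were 16.9% of all tested clusters and 30.8% of the abundant ones (mean of 10 CPM or more). The members' median log2 difference was -2.29, beside 0.31 for all clusters tested and -0.089 for the abundant ones. Against blue, 66 of the 134 (49.3%) were called lower in red, where 0.667% of all tested clusters and 1.83% of the abundant ones were. Their median was -1.17 for the 134 members, beside 0.03 for all clusters tested and -0.0061 for the abundant ones. The rule chose the members on these contrasts, so nothing is read from the counts. The 66 also moved with the libraries and the fit: the count was 15 to 20 without a red library, 23 to 41 without a blue one, 32 without white 3 and 102 without white 1. When the white libraries were left out of the fit it was 125.

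The largest member by counts was Cluster-15686.47801, of 273 bases of effective length. It had 6837 CPM in white 1, 21545 in white 2 and 18498 in white 3. The red libraries had 517, 472 and 515 CPM, and the blue libraries 815, 1863 and 2199.7 CPM. The lights did not overlap, and blue 1 was nearest to red. The mean CPM was 15627 ± 7763 for white (SD, n = 3), 501 ± 25 for red and 1626 ± 722 for blue. It was lower in blue than in white by a log2 difference of -3.71 ± 0.56 (SE, edgeR adjusted p = 0.0024). The fitted difference between red and blue was -1.59 ± 0.51 (edgeR adjusted p = 0.24). Its counts were not whole numbers in any library, as when reads are divided between clusters.

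The next members by mean CPM had the same order of lights, in which the rule sets red lowest. The second, of 2563 bases, had 5392, 4577 and 5011 CPM in white 1 to 3, 309.5, 324 and 317 in red and 672, 997 and 2349 in blue. Its level in blue was lower than in white by -2.29 ± 0.43 on the log2 scale (SE, edgeR adjusted p = 0.0062). The third, of 1195 bases, had 2609, 3816 and 3357 CPM in white, 145, 158 and 167 in red, and 324, 559.9 and 1907 in blue. In both, blue 3 stood well above blue 1 and blue 2 and closer to white. The fourth, of 3844 bases, had 2500.4, 3121 and 3067 CPM in white, 138, 133 and 127 in red and 301, 527 and 745 in blue, and its fall in blue was -2.88 ± 0.33 (SE, edgeR adjusted p = 0.00071). Of the 26 members with a gap and a mean above 100 CPM, 14 were lower in blue than in white, 2 were higher and 10 did not pass. Calls among all clusters above 100 CPM were not counted, so nothing is read from these numbers.

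The sixth member by mean CPM had nearly equal levels in white and blue. It had 761, 735 and 737 CPM in white 1 to 3, 464, 474 and 442 in red, and 831, 831 and 969 in blue, over 1737 bases. Every blue library lay above every white one by CPM, but the fitted difference between blue and white, after TMM, was -0.17 ± 0.11 (SE, edgeR adjusted p = 0.25). Its mean was 1.62 times higher in white than in red and 1.91 times higher in blue.

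The size of the fall in blue varied widely among the 90 members lower there. Their white mean was a median of 2.03 times the blue mean, from 1.06 to 37.6 times. Among members with a blue mean above 1 CPM, the largest fitted fall was in the one ranked 14th by mean CPM, of 2261 bases. It had 827, 688 and 746 CPM in white 1 to 3, 24.1, 23.7 and 21.8 in blue and 11.1, 14.3 and 12.1 in red. Its difference between blue and white was -5.43 ± 0.12 on the log2 scale (SE, edgeR adjusted p = 1.3e-06). This cluster had thus lost nearly all of its white level in blue, and it is a member because red was lower still. Of the 31 members with a white mean of at least 10 times the red mean, 24 were called lower in blue than in white. The other 7 did not pass. Picking by that fold favours high white levels, and calls among other such clusters were not counted, so nothing is read from the 24.

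Within blue, the 3 libraries held different places in the members. Blue 3 was the highest blue library in 79 of the 134 members (59.0%) and in 27.7% of clusters with a mean of at least 10 CPM. Blue 1 was the lowest in 81 (60.4%), against 30.3%. Blue 3 was at least 2-fold above both other blue libraries in 11 members (8.21%), against 1.28% of those clusters, whereas neither blue 1 nor blue 2 was so in any member. Leaving out blue 1 from the rule gave 259 clusters in place of 161, and leaving out blue 3 gave 182. The part of blue 1 and blue 3 in the results was not tested further.

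The member with the largest gap, Cluster-15686.45002 of 1554 bases, had 32.1, 152 and 97.7 CPM in white 1 to 3, 1.99, 0 and 0.997 in red, and 18.0, 45.3 and 23.7 in blue. Its lowest white or blue CPM was 9.04 times its highest red CPM. White and blue overlapped, and neither blue against white (log2 difference -2.17 ± 0.93, SE, edgeR adjusted p = 0.12) nor red against blue (-4.68 ± 1.08, edgeR adjusted p = 0.093) passed. Only 1 of its 9 libraries had a whole count.

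In the next 2 members by the size of the gap, blue stayed near or above white. The second, of 1342 bases, had 13.5, 13.2 and 14.4 CPM in white, 1.02, 0.905 and 1.47 in red and 25.7, 23.6 and 31.6 in blue. Blue lay above white in every library, with a fitted difference of 0.57 ± 0.24 that did not pass (SE, edgeR adjusted p = 0.11). The third, of 2780 bases, had 54.7, 14.2 and 40.3 CPM in white, 2.00, 1.41 and 1.46 in red and 51.5, 44.8 and 61.3 in blue. Its difference between blue and white was 0.17 ± 0.39 (SE, edgeR adjusted p = 0.77), and its mean in blue was 32.4 times that in red. The fourth, of 1508 bases, had 38.6, 54.0 and 47.7 CPM in white, 5.79, 5.49 and 5.02 in red, and 33.1, 28.5 and 40.4 in blue, and blue was lower than white by -0.88 ± 0.22 (SE, edgeR adjusted p = 0.019).

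The 55 members whose white and blue means were within 1.5-fold come closest to a fall in red alone. Their mean in white was a median of 2.43 times that in red, from 1.62 to 22.4 times, and their mean in blue a median of 2.11 times, from 1.61 to 32.4 times. After TMM, 28 of these 55 were still called lower in blue than in white and 27 did not pass. The share called lower was 28.8% among all clusters with a mean of at least 10 CPM. TMM scales white up relative to blue, and calls among other clusters with means this close were not counted. Nothing is therefore read from the 28. That a member did not pass between blue and white does not show that its level was the same.

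In 5 members blue was higher than white while red was lower than white. Cluster-15686.52905, of 1513 bases, had 7.86, 6.03 and 5.47 CPM in white 1 to 3, 3.10, 2.04 and 2.67 in red and 45.4, 47.0 and 53.6 in blue. The 3 lights did not overlap, and blue was 7.54 times white by mean CPM, with a log2 difference of 2.52 ± 0.20 (SE, edgeR adjusted p = 0.00012). Cluster-15686.30480, of 2696 bases, had 8.52, 8.20 and 6.70 CPM in white, 3.75, 4.30 and 2.85 in red, and 43.4, 44.8 and 54.8 in blue. Its mean in blue was 6.11 times that in white, a log2 difference of 2.20 ± 0.20 (SE, edgeR adjusted p = 0.00018). Both had whole counts in all 9 libraries.

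The other 3 of these members rose less in blue. The one with the most counts, of 3561 bases, had 206, 147 and 163 CPM in white 1 to 3, 46.3, 40.1 and 50.6 in red and 314, 324 and 354 in blue. Another, of 2370 bases, had 24.2, 24.8 and 20.9 CPM in white, 6.24, 5.77 and 5.57 in red and 55.0, 49.7 and 58.3 in blue. The last, of 810 bases, had 78.1, 92.6 and 103 CPM in white, 45.5, 44.9 and 47.7 in red and 223, 210 and 217 in blue. Their log2 differences between blue and white were 0.55 ± 0.13, 0.81 ± 0.14 and 0.83 ± 0.15 (SE), with edgeR adjusted p of 0.018, 0.0039 and 0.0056. In these 5 members every blue library lay above every white library.

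**Figure D5:**
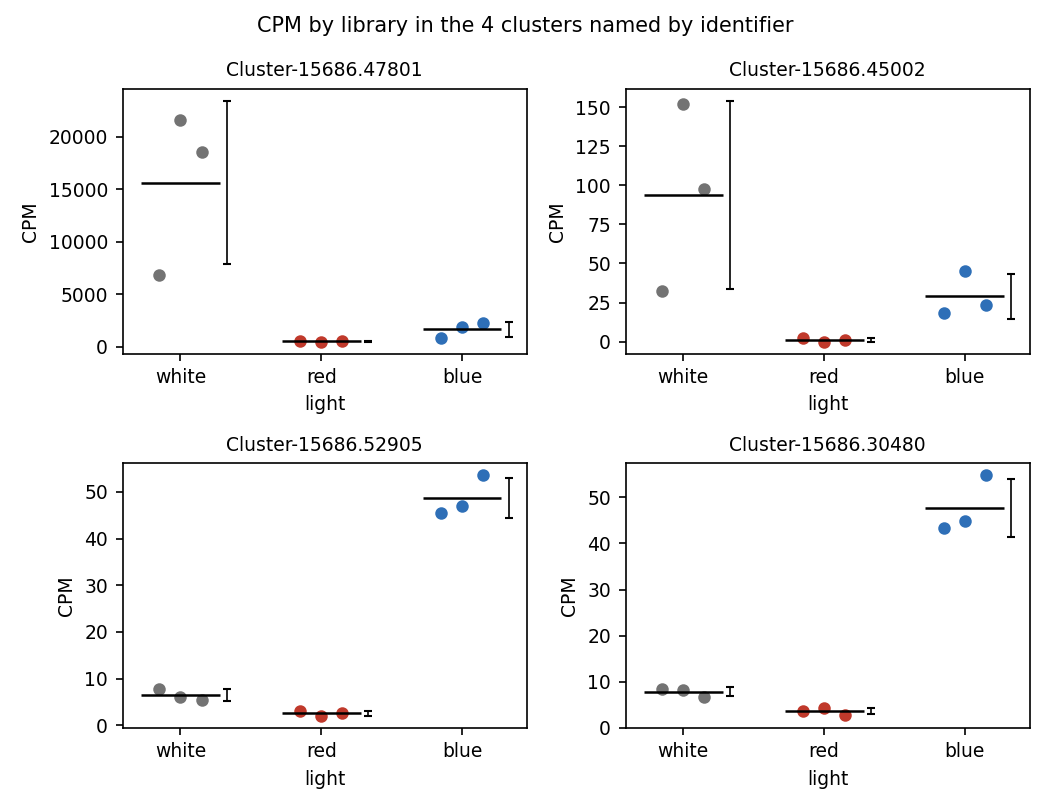
CPM in each library (points) of the 4 clusters named by identifier, with the mean (line) and SD (bar, n = 3) per light on linear axes that include 0. In Cluster-15686.47801 and Cluster-15686.45002 the highest values are in white, and in Cluster-15686.52905 and Cluster-15686.30480 the blue libraries lie between 43.4 and 54.8 CPM, above all others.

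The 27 members with no counts in red were clusters of white light. Their mean in white ranged from 30.8 to 1329 CPM with a median of 52.1, and 15 of them had no counts in any of the 6 red and blue libraries. The other 12 had no counts in red and at most 37.1 CPM by mean in blue. Taking 3 counts in all red libraries together as the floor, which is 0.0469 CPM, pooled white counts were at least 645-fold higher in each, up to a bound of 28544-fold. With no counts in red and mostly few or none in blue, a mean of at least 10 CPM requires a high white level. The low end of these bounds thus follows from the rule. Single white libraries carried some of these bounds. The highest, with 3849 CPM in white 1 beside 70.6 and 65.8 in the other white libraries, was 1459-fold without white 1. Leaving out white 1 lowered the bound of 3 clusters by more than 1.5 times, and leaving out white 2 that of 8. Of those 8, 1 had all its white counts in white 2 and no bound without it. No counts in at least 1 white library were found in 3 of the 27 clusters. Because too few libraries passed the minimum count, 3 clusters were not tested, 2 of them among those with a white library at 0. Of the 24 tested, 23 were called lower in red than in white and 18 lower in blue than in white. The shares among all clusters with a mean of at least 10 CPM were 30.8% and 28.8%. As the 27 were chosen with no counts in red and reach the mean mainly through white, nothing is read from these calls. The 15 clusters at 0 in both red and blue show no fall in red alone.

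Beyond the values the rule used, the members with a gap had a median effective length of 1551 bases, against 1859 bases for clusters with a mean of at least 10 CPM. Of the 134, 9 (6.72%) were shorter than 300 bases, against 2.50% of those clusters, and all 9 were lower in blue than in white. Counts were whole in all 9 libraries in 50 members (37.3%), against 31.8%. Of these 50, 32 were lower in blue than in white, 15 did not pass and 3 were higher. In the other 84 members with a gap, a difference between lights can also be a difference in how reads were divided between clusters, which was not tested. None of the 27 clusters with no counts in red had whole counts throughout. Calls in blue among all clusters under 300 bases, or among all with whole counts, were not counted. No link of length or whole counts to blue is therefore read from the 9 and the 50 members.

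The libraries of 1 light also differed among themselves. White libraries differed at least 2-fold in 25 of the 134 members, blue libraries in 24 and red libraries in 8. For all clusters of 10 CPM or more the shares were 38.1% for white, 6.55% for blue and 4.48% for red. The rule keeps clusters whose lowest white library is still high, so that the white share is in part set by it. The median coefficient of variation of the members was 15.8% in white, 13.0% in blue and 9.02% in red.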

How the data were processed

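The authors deposited 1 table per library listing counts and FPKM of 115975 clusters, per the file headers. The deposited counts are estimated counts, not scaled, with 21.6% to 33.9% of values not whole. The deposited FPKM values were used for levels per length and to derive effective lengths (median over libraries with at least 50 counts). The submitters' processing notes name DESeq 1.10.1; aligner, counting tool and assembly are not given in the sources used here.

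CPM used library totals. For tests, counts were rounded, filtered with filterByExpr (minimum 10 counts, 15 in total; 38376 clusters kept), TMM-scaled and fitted with edgeR 4.0.16 (R 4.3.3), all 9 libraries in 1 fit with light as the term. The SE is the log2 difference divided by the square root of F. Of the 161 members 158 were tested. The code was tested on simulated data. Alternatives used DESeq2 1.42.0 and limma 3.58.1. The members and the rules were chosen with earlier results of these data known. As identifiers could not be paired with genes, 4 clusters are named: the member with the highest mean CPM, the one with the largest gap, and the 2 with the largest rise in blue over white; others are given by rank. The steepest fall in blue, the 5 members higher in blue and the sixth by mean CPM were picked after their values were seen. The mean chi-square per cluster between libraries of 1 light was 8.15 to 149, where repeat runs of 1 library give about 1, so none were merged. The floor of 3 counts covers counting error only, whereas the SD and SE take in the spread between libraries.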

Additional observations from a re-analysis of the deposited data

How the results depend on the processing

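The set of 161 clusters followed its limits: 63 at a 2-fold gap, 373 at a smaller gap, 623, 264 and 95 at a mean of at least 1, 5 and 20 CPM, 137 with TMM, 134 with RLE factors (size factors) and 158 with FPKM. With counts summed by first number it was 0, since almost all counts then fall in 1 sum. It was 150 to 259 without 1 library. TMM kept 123 of the 161 and added 14 clusters. Of the 161, the 108 lower in blue than in white became 70 at an adjusted p under 0.01 and 78 to 120 without 1 library. Over all tested clusters, the 5637 lower in blue became 2814 and 3402 to 8031. The 5 higher in blue became 11 with library totals, 8 with a filter at 10 CPM and 4 to 6 without 1 library. For all tested clusters the 5424 higher in blue became 8011, 2285 and 3648 to 10094. The 157 called lower in red than in white became 150 to 160 without 1 library, beside 6481 and 3732 to 8814 of all tested clusters. The 66 called lower in red than in blue became 115 with DESeq2, 105 with a filter at 10 CPM, 125 in a fit of both groups alone and 21 at an adjusted p under 0.01. Without 1 library they were 15 (red 2) to 102 (white 1), with 17 without red 1, 20 without red 3, 32 without white 3, 41, 23 and 32 without blue 1, 2 and 3, and 98 without white 2. Calls lower in red than in blue over all tested clusters, 256 in the main fit, moved too. They were 1133 with DESeq2, 510 with a filter at 10 CPM and 2048 in a fit of both groups alone. At an adjusted p under 0.01 they were 43, and without 1 library 32 (red 2) to 629 (white 2). The cause was not tested.

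The replicate numbers of the 3 lights are not stated to pair samples. Deviations of same-numbered libraries correlated at 0.0021 to 0.0554, and a library correlated best with its own number in 12 of 18 cases. Each case had 3 numbers to choose from. Whether the numbers pair samples was not tested beyond a replicate block. With the number as a replicate block, 26 members were called lower in red than in blue, beside 61 of all tested clusters. In that fit 93 members were lower and 5 higher in blue than in white, and 155 lower in red than in white. Of all tested clusters, 4337, 4230 and 5006 were so called, fewer than in the main fit. The differences of the 4 named clusters from white kept their sign in all 18 alternatives. The rule sets red below white, and 2 of the clusters were picked for blue above white, so these signs were largely set beforehand. The alternative of an adjusted p under 0.01 also reuses the main fit. The difference of Cluster-15686.45002 between red and blue passed in 4 of 18 and between blue and white in 1, and that of Cluster-15686.47801 between red and blue in 1. Red levels under 1 CPM rest on few counts, so folds over such levels are imprecise.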
